A study of Homo sapiens with 4 samples.

Results

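Enzymes that edit, degrade or sense viral and cellular nucleic acids were followed in neuroblastoma cells that overexpressed the long noncoding RNA *RP5-998N21.4*. The members were chosen as a group by gene symbol, with earlier results of these data known but with no measured value in the rule: *APOBEC3B*, *APOBEC3C*, *APOBEC3F*, *APOBEC3G*, *SAMHD1*, *TREX1*, *ADAR*, *EIF2AK2*, *ZC3HAV1* and *PDE12*. They are 10 of the 57820 genes of the count table and cover 53 of its 196520 transcript rows. The cells were SK-N-SH, an established human neuroblastoma line. The OE libraries came from cells that received a lentivirus carrying *RP5-998N21.4* behind the EF1a promoter, and the vector control libraries came from cells that received the same kind of lentivirus with no insert. The control titles call these cells WT, while their treatment label names the empty vector. Both groups were therefore exposed to lentivirus, and no untransduced cells were compared. Each group had 2 libraries, and the labels do not say whether they came from separate cultures or from a clone or a pool, so p-values measure only the spread between these samples, which may be technical.

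The members act at different points of the defense against foreign or misplaced nucleic acid. The APOBEC3 enzymes deaminate cytidine in single-stranded DNA, SAMHD1 breaks down deoxynucleotides, and TREX1 digests DNA in the cytosol. ADAR converts adenosine to inosine in double-stranded RNA, the kinase PKR (encoded by *EIF2AK2*) stops translation when it binds such RNA, ZAP (encoded by *ZC3HAV1*) directs CpG-rich RNA to decay, and PDE12 degrades 2-5A, a messenger of the antiviral response. Several of these genes are known to be induced by interferon in many cell types.

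The libraries held 23785164 to 28307591 counts, of which 6.01% to 6.50% were mitochondrial. The targeted RNA, *RP5-998N21.4*, was counted 32 and 33 times in the controls and 2407 and 2808 times in OE, the direction that the labels give. Of 12 neuroblastoma marker genes, 11 were tested and *TH*, which encodes tyrosine hydroxylase, had 0 counts in all 4 libraries. Of the 11, 10 were higher in OE, and 7 of them at an unadjusted p below 0.05. The remaining marker, *PRRX1*, was lower at the same threshold, with a log2 fold change of -0.64. Of 12 leukocyte markers, *CD3E*, *MS4A1* and *CD247* had 0 counts in every library, and the 12 summed to between 6.38 and 14.7 CPM (counts scaled to a common library size). All 12 proliferation genes were tested, 6 of them were lower in OE at an unadjusted p below 0.05 and none was higher, and their sums were 497 and 502 CPM in the controls against 296 and 320 CPM in OE.

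None of the 10 enzymes reached the thresholds used by the study (adjusted p below 0.01 and an absolute log2 fold change above 0.5) when tested with edgeR (quasi-likelihood test, Benjamini-Hochberg adjustment over all tested genes). Nor did any of the 20528 genes tested, so the background share of calls was 0%, and limma-voom called 0 genes as well. Of the 10 members 9 passed the filter on low counts and *APOBEC3B* did not. At an adjusted p below 0.05 with the same fold limit the test called 1 member, *PDE12*, beside 0.594% of all genes. At an unadjusted p below 0.05, 1 member was higher in OE (*APOBEC3G*) and 2 were lower (*PDE12* and *TREX1*), against 10.1% of all genes higher and 10.7% lower. Both OE libraries lay above both controls in 5 members and below them in 2, against 27.8% and 27.6% of all genes, and the groups overlapped in the other 2. The median log2 fold change of the 9 tested members was 0.06, beside 0.0071 over all tested genes. The study's methods name DESeq2 as its test, and at those thresholds DESeq2, given the genes that edgeR tested, did call 2 members, *PDE12* (adjusted p 3.68e-37) and *TREX1* (adjusted p 2.47e-05), both lower in OE. It called 4.35% of all genes higher and 4.42% lower, so the calls of these 2 members depend on the tool. With 2 libraries against 2, an exact two-sided permutation test of a single gene cannot give a p below 0.333, which was its value in each of the 7 members without overlap.

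**Figure D1:**
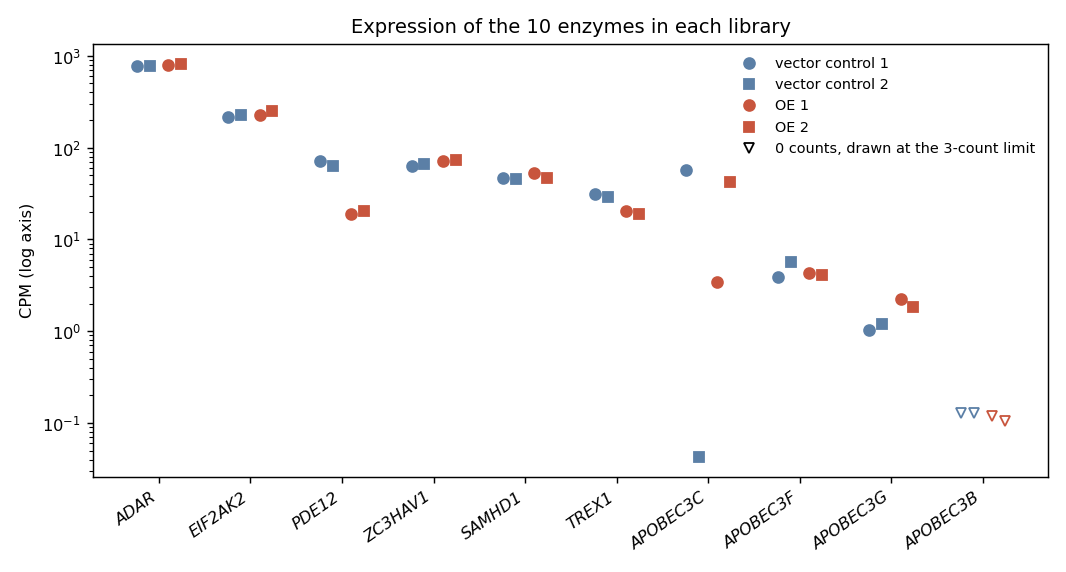
Expression of each enzyme in each library in CPM, on a log axis, with vector control libraries in blue and OE libraries in red (circles for replicate 1, squares for replicate 2, open triangles for 0 counts drawn at the level of 3 counts). *PDE12* and *TREX1* lie lower and *APOBEC3G* higher in both OE libraries, and *APOBEC3C* differs more between replicates than between groups.

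*PDE12*, the phosphodiesterase that removes the 2-5A messenger and also trims poly(A) tails in mitochondria, differed most. The gene (ENSG00000174840.8) lies on the plus strand of hg19 at chr3:57542001-57552575. It had 1678 and 1477 counts in the controls and 479 and 585 in OE. Every count lay on 1 of the 2 listed transcripts, PDE12-202 (ENST00000487257.1), while PDE12-201 (ENST00000311180.8) had 0 counts in all libraries. The 2 transcripts part within the stretch printed here, and the sequences show which of the 2 ends the counts were assigned to. Both runs are coding sequence from hg19 chromosome 3, plus strand, and capitals mark the letters that follow the last one up to which both runs read alike. The run of PDE12-202 is contiguous, chr3:57545103-57545132, and that of PDE12-201 is spliced within chr3:57545103-57545305. The last like letter lies at base 57545117 in PDE12-202 and at base 57545290 in PDE12-201, so the splice of PDE12-201 falls before it.
PDE12-201: tggcatcctaaaggtGGGTATATTCGCCTC
PDE12-202: tggcatcctaaaggtAGGTTTTATTTGGTA

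In CPM, *PDE12* stood at 72.1 and 62.9 in the controls and at 19.1 and 20.2 in OE. Its mean was 67.5 ± 6.51 CPM in the controls and 19.7 ± 0.803 in OE (SD, n = 2 libraries each). The groups did not overlap, and each OE library lay far below each control. The log2 fold change was -1.78 (SE 0.119, 95% interval -2.12 to -1.44), that is, 3.43-fold lower in OE, with an adjusted p of 0.0415 in edgeR. By unadjusted p *PDE12* ranked 86 of 20528 genes. Leaving out 1 library at a time gave log2 fold changes of -1.88 to -1.68, with adjusted p-values of 0.0861 to 0.131 in edgeR. DESeq2 gave an adjusted p of 3.68e-37. With replicate number added to the edgeR model as a block the adjusted p was 0.296, and with only the top transcript per gene it was 0.0603. The call at an adjusted p below 0.05 thus depended on the setting. Tested at the level of transcripts, PDE12-202 had a log2 fold change of -1.79 and an adjusted p of 0.0878 in edgeR.

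*TREX1* encodes the main DNA 3′ exonuclease of the cytosol. Its rows (ENSG00000213689.5, plus strand, chr3:48507210-48509044) had 724 and 683 counts in the controls and 518 and 544 in OE. Both OE libraries were lower, at 20.6 and 18.8 CPM against 31.1 and 29.1 in the controls. The means were 30.1 ± 1.43 and 19.7 ± 1.30 CPM (SD, n = 2 each). The log2 fold change was -0.61 (SE 0.113, 95% interval -0.93 to -0.29), a drop to 0.656 of the control level, with an unadjusted p of 0.00693 and an adjusted p of 0.113 in edgeR. It missed edgeR's threshold and passed that of DESeq2, with an adjusted p of 2.47e-05. Without 1 library at a time it stayed between -0.68 and -0.54.

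The *TREX1* value is uncertain in its source, since the gene shares exons with *ATRIP*, a partner of the checkpoint kinase ATR, which is read on the same strand. All 997 windows of 100 bases along the reference *TREX1* transcript also occur in transcripts annotated to *ATRIP*. *ATRIP* itself had 239 and 377 counts in the controls and 231 and 297 in OE, so its groups overlapped. *TREX1* and *ATRIP* together came to 41.4 and 45.1 CPM in the controls and 29.8 and 29.1 in OE. The sum was thus lower in both OE libraries, with a log2 ratio of the means of -0.55, for which no test was run. Of the *TREX1* counts, 96.1% to 100% lay on ENST00000422277.2, which is not in the annotation used here.

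*APOBEC3G*, the deaminase best known for restricting HIV-1 that lacks Vif, was low throughout. The gene (ENSG00000239713.3, plus strand, chr22:39473072-39483748) had 24 and 28 counts in the controls and 56 and 53 in OE. The exact 95% Poisson intervals were 15.4 to 35.7 and 18.6 to 40.5 counts in the controls and 42.3 to 72.7 and 39.7 to 69.3 in OE, and they cover counting error only. Both OE libraries were higher, and the mean was 1.11 ± 0.114 CPM in the controls and 2.03 ± 0.282 CPM in OE (SD, n = 2 each). The log2 fold change was 0.87 (SE 0.261, 95% interval 0.12 to 1.61), 1.83-fold, with an unadjusted p of 0.0324 and an adjusted p of 0.201 in edgeR. The difference did not pass the study's thresholds in edgeR or in DESeq2, where the adjusted p was 0.0901. Without any 1 of the 4 libraries it ranged from 0.72 to 1.00 and no longer had an unadjusted p below 0.05.

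The transcripts of *APOBEC3G* differed between the groups in which rows held counts. The protein-coding APOBEC3G-201 had 10 and 19 counts in the controls and 35 and 47 in OE. Its log2 fold change was 1.27 (SE 0.456), with an adjusted p of 0.394 over all transcripts in edgeR. The other counts lay on 3 transcripts annotated as retained introns. APOBEC3G-203 had 4 and 5 counts and APOBEC3G-207 had 10 and 4 counts in the controls, and both had 0 in OE. APOBEC3G-205 had 0 counts in the controls and 21 and 6 in OE. None of these 3 rows passed the filter on low counts, so no test was made. Of the 1465 windows of 100 bases along the gene's reference transcript, 107 also occur in *APOBEC3F*.

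*APOBEC3F* (ENSG00000128394.12, plus strand, chr22:39436609-39451977), a neighbouring deaminase of the same cluster, had 90 and 132 counts in the controls and 108 and 118 in OE. The OE libraries lay between the controls, with means of 4.74 ± 1.24 and 4.19 ± 0.159 CPM (SD, n = 2 each). This gave a log2 fold change of -0.18 (SE 0.250, 95% interval -0.89 to 0.53) with an adjusted p of 0.737 in edgeR. Its sign turned without the second control library, to 0.11. APOBEC3F-201 held 83.3% and 84.8% of the counts in the controls and 89.8% and 97.5% in OE, and the shorter APOBEC3F-202 held the rest, 15 and 20 counts against 11 and 3.

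*APOBEC3C* (ENSG00000244509.3, plus strand, chr22:39410262-39416357), a single-domain deaminase, could not be compared between the groups. It had 1336 counts in the first control and 1 in the second, then 86 in the first OE library and 1213 in the second, all on APOBEC3C-201. One library of each group was high and the other low, so that the replicates were 1348-fold apart in the controls and 12.2-fold in OE. Such gaps were rare among well-covered genes: of 8981 tested genes with a mean of at least 500 counts, 305 (3.40%) had replicates more than 10-fold apart in either group after adding 1 count. The fitted log2 fold change was -0.34 (SE 2.49, 95% interval -7.44 to 6.77), and leaving out 1 library at a time moved it between -3.06 and 8.90, with a positive sign without the first control (8.90) or without the first OE library (0.55). No window of 100 bases of the gene occurred in another gene's transcripts, although a read-through gene (ENSG00000284554) that is not in the count table overlaps it on the same strand. Whether counts passed to another row in the low libraries was not tested.

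*APOBEC3B*, a nuclear deaminase known for mutating tumor genomes, had 0 counts in every library on all 4 of its transcripts (ENSG00000179750.11, plus strand, chr22:39378352-39388809). A count of 0 allows up to 3 counts, or 0.104 to 0.129 CPM depending on the library. It could not be compared, and 20.5% of its 100-base windows are shared with other genes of the cluster. The group as a whole was thus represented by *APOBEC3C* at 0.0426 to 57.4 CPM, *APOBEC3F* at 3.87 to 5.62 and *APOBEC3G* at 1.03 to 2.23. Leukocytes, which are rich in these enzymes, were marked by *PTPRC* at 0, 0, 0 and 4 counts. *CD8A*, a marker of cytotoxic T cells, had 26 and 29 counts in the controls and 101 and 124 in OE, a log2 fold change of 1.82. Of the 5 leukocyte markers tested 2 were higher and 3 lower in OE, with a median log2 fold change of -0.26. The list summed to 14.7 and 13.9 CPM in the controls against 6.38 and 11.5 in OE. *CD68* held 240 and 237 of the list's 342 and 326 counts in the controls. In OE it held 2 and 126 of 160 and 332, so the lower sum in OE rests on this gene. The part of other cells in these values was not tested.

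**Figure D2:**
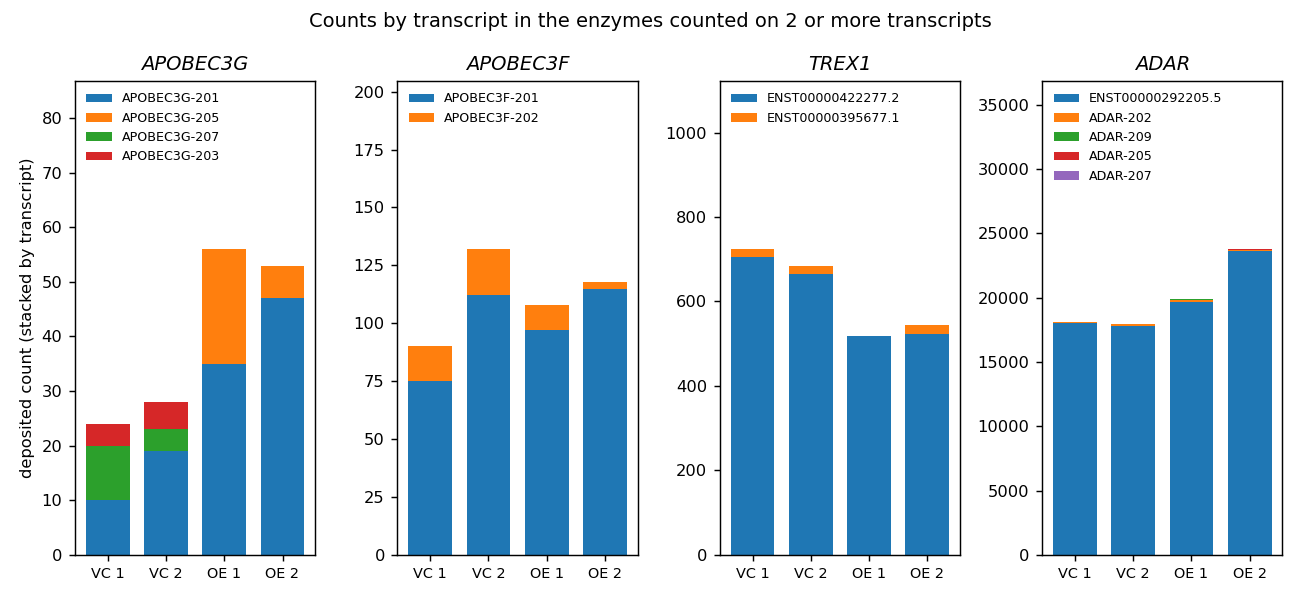
Deposited counts in each library (VC, vector control) stacked by transcript, for the 4 enzymes whose counts were spread over more than 1 transcript. *APOBEC3G* counts lie on different retained-intron transcripts in the 2 groups, whereas nearly all *ADAR* and *TREX1* counts lie on a single transcript in each library.

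*SAMHD1*, the triphosphohydrolase that lowers deoxynucleotide levels, had 1078 and 1072 counts in the controls and 1330 and 1357 in OE (ENSG00000101347.7, minus strand, chr20:35518632-35580296). In CPM the controls stood at 46.3 and 45.6 and the OE libraries at 53.0 and 46.9. Both OE libraries were above both controls, the second by little. On the log2 scale the fold change was 0.12 (SE 0.106, 95% interval -0.18 to 0.42) with an adjusted p of 0.582 in edgeR, so that the interval leaves room for a change of up to 1.34-fold upwards. All counts lay on SAMHD1-201.

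*ADAR* was the most abundant of the 10. The gene (ENSG00000160710.11, minus strand, chr1:154554171-154600489) had 18148 and 17989 counts in the controls and 19925 and 23778 in OE, or 779 and 766 against 794 and 822 CPM. Both OE libraries were slightly higher, by a log2 fold change of 0.06 (SE 0.0443, 95% interval -0.06 to 0.19), with an adjusted p of 0.477 in edgeR. The interval was the narrowest among the members and reached a 1.14-fold increase. *ADAR* is known to make a long isoform from an interferon-inducible promoter and a shorter one from constitutive promoters. ADAR-202, which codes for the long protein, had 117 and 156 counts in the controls and 161 and 114 in OE, 0.479% to 0.867% of the gene's counts, with overlapping groups. ADAR-201 had 0 counts. From 98.6% to 99.3% of the counts lay on ENST00000292205.5, which is not in the annotation used here, so its isoform is not given.

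*EIF2AK2*, the gene of PKR, had 4977 and 5296 counts in the controls and 5678 and 7332 in OE (ENSG00000055332.12, minus strand, chr2:37326353-37384665), all on EIF2AK2-201. In CPM these were 214 and 225 against 226 and 253, so the groups were barely apart. Their log2 fold change was 0.13 (SE 0.087, 95% interval -0.12 to 0.38) with an adjusted p of 0.477 in edgeR. *GPATCH11* overlaps the gene on the opposite strand, with 1361 to 1461 counts.

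*ZC3HAV1*, the gene of ZAP, had 1464 and 1542 counts in the controls and 1810 and 2099 in OE (ENSG00000105939.8, minus strand, chr7:138728261-138816868). It stood at 62.9 and 65.6 CPM in the controls and at 72.1 and 72.6 in OE, with no overlap. This was a log2 fold change of 0.17 (SE 0.0832, 95% interval -0.07 to 0.41), with an unadjusted p of 0.113 and an adjusted p of 0.345 in edgeR, so no difference was called. DESeq2 gave an unadjusted p of 0.023 and an adjusted p of 0.0969. All counts lay on ZC3HAV1-201, the longest of its 4 transcripts, and ZC3HAV1-204, which is shorter, had 0.

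The promoters of *EIF2AK2* and *ZC3HAV1* are shown because they held the only matches to the 2 interferon-related motifs searched, an ISRE core (GAAA, any 2 bases, GAAA) and a GAS core (TTCC, any base, GGAA). RefSeq promoters, from 250 bases before to 50 after a start site, were given for 6 of the 10 members in 8 windows of GRCh38.p14, and both strands were searched. The 4 APOBEC3 genes had no entry. The ISRE core was found from position -6 to 3 of *EIF2AK2*, within the printed stretch chr2:37156967-37156996 on the minus strand, and in 3.57% of all 35116 promoters. The GAS core was found from position -104 to -96 of *ZC3HAV1*, within the printed stretch chr7:139109806-139109834 on the minus strand, and in 1.15% of all promoters. Capitals mark the matches, which are descriptions of letters and not of bound sites.
EIF2AK2: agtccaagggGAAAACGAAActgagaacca
ZC3HAV1: ggtctgctctTTCCGGGAAtgggtggggt

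The log2 fold changes of the 2 genes with a match were 0.13 and 0.17, and neither was called at the study's thresholds in edgeR or DESeq2. The windows of *ADAR* (0.06), *SAMHD1* (0.12), *TREX1* (-0.61) and *PDE12* (-1.78) held neither motif, so windows without a match belonged to genes with both higher and lower values in OE.

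**Figure D3:**
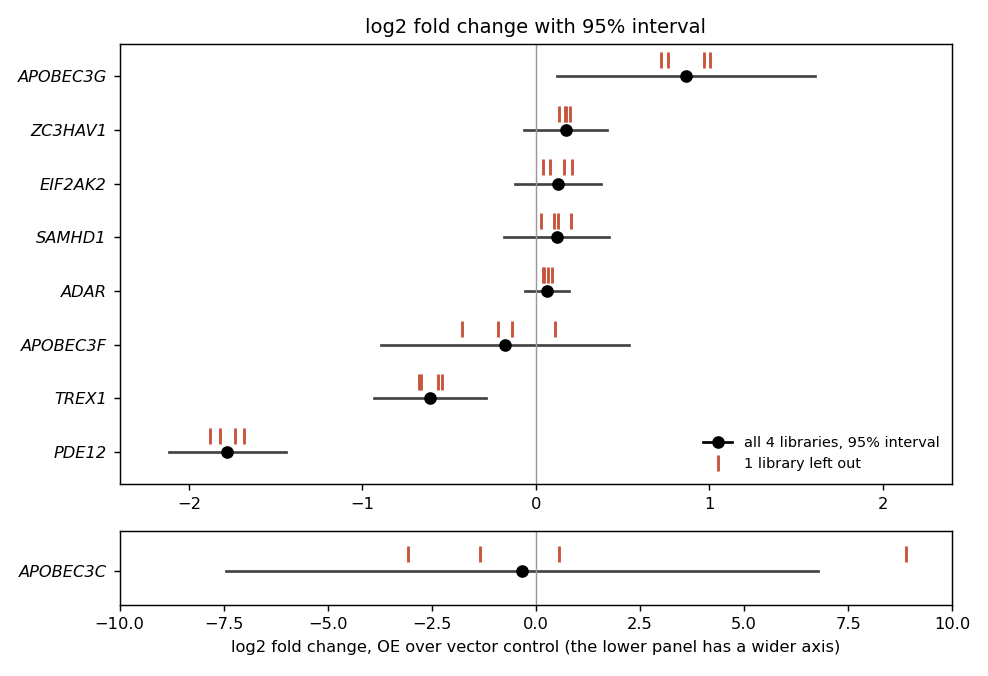
Log2 fold change of OE over vector control for the 9 tested enzymes, with the 95% interval from edgeR as a line and the values with 1 library left out as red ticks. The intervals of *PDE12*, *TREX1* and *APOBEC3G* do not reach 0, and *APOBEC3C* is drawn on the wider axis of the lower panel.

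Levels were compared between the enzymes only per length, as CPM per kilobase of transcript. In the controls *ADAR* stood at 117 CPM per kilobase, followed by *TREX1* at 27.4 ± 1.31, *PDE12* at 22.2 ± 2.14 and *EIF2AK2* at 22.0 ± 0.826 (SD, n = 2 each). *PDE12* and *EIF2AK2* did not differ beyond their spread. *SAMHD1* followed at 10.6 ± 0.110 and *ZC3HAV1* at 8.95 ± 0.271, then *APOBEC3F* at 1.05 ± 0.276 and *APOBEC3G* at 0.710 ± 0.0728. *APOBEC3C*, at 10.9 ± 15.3, could not be placed. In OE *PDE12* stood at 6.47 ± 0.264, below *SAMHD1* at 11.5 ± 0.993 and *ZC3HAV1* at 10.1 ± 0.0428, both of which it exceeded in the controls. The lengths of *ADAR* and *TREX1* are those of the reference transcript, since the counted transcripts are not in the annotation used here. For *PDE12* the length is 3.04 kilobases, that of the transcript to which all its counts were assigned. Its reference transcript is longer, at 8.78 kilobases, and would give lower values per kilobase. The place of *PDE12* in the controls, beside *EIF2AK2* and above *SAMHD1* and *ZC3HAV1*, thus depends on the shorter length.

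The pathways around the enzymes were read from 9 lists that together held 97 genes of the table, of which 87 were tested. None was called at the study's thresholds or at an adjusted p below 0.05 in edgeR. At an unadjusted p below 0.05, 16 of the 87 were higher and 13 lower, to be read against the 10.1% and 10.7% of all genes given above. The higher count dropped to 10 without the second control or the first OE library, to 9 without the second OE library and to 10 with the replicate block, and the lower count dropped to 8 without the second control and with the block. Their median log2 fold change was -0.08. At the study's thresholds limma-voom also called 0 of them, and DESeq2 called 7 higher and 7 lower, to be read against its 4.35% and 4.42% of all genes.

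Genes around PDE12 included the enzymes that make 2-5A and some deadenylases. Of the 13 tested, 5 were higher and 0 lower at an unadjusted p below 0.05, with a median of 0.22. *OAS3*, which makes 2-5A, had 1181 and 1168 counts in the controls and 2643 and 3536 in OE, a log2 fold change of 1.18 (SE 0.112) with an adjusted p of 0.0629 in edgeR. *OAS2* had 28 and 17 against 99 and 119 counts, a log2 fold change of 2.06, and *OAS1* had 126 and 102 against 200 and 294, a log2 fold change of 0.89. *PAN2*, the catalytic deadenylase that acts with PAN3, had a log2 fold change of 1.22 (adjusted p 0.0643 in edgeR). The 2-5A synthetases were thus higher and *PDE12* lower in both OE libraries, and none of them passed the study's thresholds in edgeR.

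ZAP cofactors and relatives numbered 13 tested genes, 4 higher and 2 lower at an unadjusted p below 0.05, with a median of 0.13. *EXOSC5*, a subunit of the RNA exosome, had the largest log2 fold change of the 4 named here, 0.86, and *RIOK3* had 0.50. *ZC3HAV1L*, a relative of ZAP, had 0.47, and *TRIM25*, the ubiquitin ligase that ZAP needs, had 4824 and 4426 counts against 6564 and 7263, a log2 fold change of 0.37. The 2 lower genes were *DHX30*, at -0.34, and *DDX17*, at -0.26, both RNA helicases. The groups overlapped in 6 of the 13 genes, beside 9146 of all 20528 tested genes.

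Partners of PKR and the other kinases of the same target, eIF2alpha, numbered 12 tested genes, 3 higher and 3 lower at an unadjusted p below 0.05, with a median of -0.07. *PPP1R15A*, which recruits the phosphatase that reverses the action of PKR, had 7261 and 7073 counts in the controls and 10752 and 12622 in OE, a log2 fold change of 0.50 (SE 0.0535, adjusted p 0.0671 in edgeR). The lower ones were the kinase genes *EIF2AK4* (GCN2) and *EIF2AK3* (PERK), with log2 fold changes of -0.56 and -0.45, and *DNAJC3*, an inhibitor of PKR, with -0.35. Besides ADAR, 4 editing genes were tested, and *ADAT2*, a subunit of the tRNA deaminase, was the one with an unadjusted p below 0.05, with a log2 fold change of 0.39. The median of these 4 was -0.05.

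Genes that repair uracil and abasic sites had a median of -0.46 over 8 tested, and 3 of them were lower and 0 higher at an unadjusted p below 0.05: *SMUG1*, a uracil glycosylase, at -1.43, *HMCES*, which shields abasic sites, at -0.39, and *APEX2* at -0.27. Genes of deoxynucleotide supply and SAMHD1 control had a median of -0.36 over 13 tested, with 2 lower and 0 higher at an unadjusted p below 0.05. In 6 of the 13 the groups overlapped, beside 9146 of all 20528 tested genes. Some genes of both lists differed widely between replicates, among them *TDG* with 663 and 72 counts in OE, *RRM2* with 830 and 105 in OE and *DCTD* with 33 and 3670 in the controls. *RRM1*, the large subunit of ribonucleotide reductase, had 1246 and 1186 counts against 816 and 852, a log2 fold change of -0.75, and *CCNA2*, the cyclin whose kinase phosphorylates SAMHD1, had 2852 and 2568 against 1680 and 1841, a log2 fold change of -0.83. Proliferation genes had a median of -0.69 over 12 genes, with *MKI67* at -0.99, and their part in these values was not tested.

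Of 10 other nucleases and genes of self-DNA removal, *DNASE1* was higher (0.29 on the log2 scale) and *RNASEH2B*, a subunit of the enzyme that cuts RNA in hybrids with DNA, was lower (-0.83) at an unadjusted p below 0.05, and the median was -0.25. The median of 12 other restriction factors was -0.06, and 2 were higher and 2 lower at an unadjusted p below 0.05: *HELZ2* at 0.52, *TRIM22* at 0.37, *TRIM5*, which targets retroviral capsids, at -0.57, and the helicase gene *MOV10* at -0.65. Among the other deaminase genes of the APOBEC family, *APOBEC3A* and *APOBEC1* had 0 counts in all libraries and 2 genes were tested, neither at an unadjusted p below 0.05. *APOBEC3D* had 5 and 20 counts in the controls and 12 and 27 in OE (log2 fold change 0.41), and *APOBEC3H* had 16 and 18 against 0 and 6 (-2.69), so these low genes differed in sign and their median of -1.14 describes neither.

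**Figure D4:**
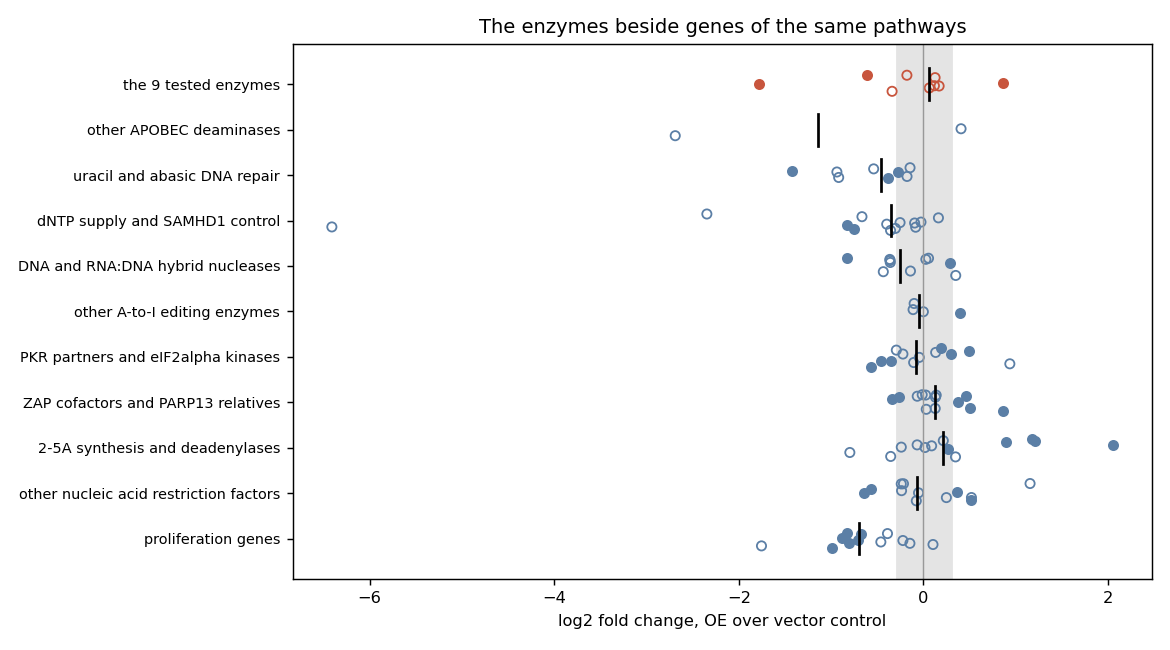
Log2 fold change of OE over vector control for the 9 tested enzymes (red) and for the tested genes of each pathway list and the proliferation genes (blue), with filled points at an unadjusted p below 0.05, black bars at medians and a grey band from the first to the third quartile of all tested genes (-0.28 to 0.32). *PDE12*, *TREX1* and *APOBEC3G* lie outside the band with filled points, and the other enzymes lie within it or, for *APOBEC3C* at -0.34, just outside it.

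At the level of transcripts, 18 of the 53 rows of the members held counts, and 5 members had all their counts on 1 transcript, which also holds for 30.6% of the 17750 expressed genes that the table lists with 2 or more transcripts. Of 30255 transcripts tested, edgeR and limma-voom each called 0 (0%) at the study's thresholds, among them 0 of the members. At an unadjusted p below 0.05 edgeR gave 2 member transcripts that were lower, PDE12-202 and the main *TREX1* transcript (log2 fold change -0.61, adjusted p 0.221), beside 7.58% of all transcripts, and 0 that were higher. DESeq2 called the same 2, both lower, beside 4.71% of all transcripts.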

How the data were processed

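Counts per transcript for 4 RNA-seq libraries, as deposited by the authors, were the only values used. The submitters' processing notes name hg19, Bowtie2 2.0.4, Picard 2.21.6, StringTie 2.1.6 and DESeq2; the tool that gave the counts, the annotation release and the use of strand are not given in the sources used here. Counts were summed per gene, filtered with filterByExpr, scaled with TMM and tested with edgeR 4.0.16 (glmQLFit, glmQLFTest, R 4.3.3), with p-values adjusted over all 20528 tested genes or 30255 transcripts. Alternatives were other size factors, filters, DESeq2 1.42.0 (local dispersion fit), limma-voom 3.58.1, a replicate block, left-out libraries, robust dispersions, no mitochondrial genes and the top transcript per gene; the non-legacy glmQLFit was added after seeing the data. Scripts were tested on simulated counts with a dispersion below the 0.122 fitted to these libraries. That test does not show which changes these libraries could reveal. CPM used TMM-scaled totals. Lengths, shared windows and transcript names came from GENCODE v44 lifted to GRCh37. All members were named, and from each pathway list the genes past the study's thresholds or, with none, up to 4 with the smallest unadjusted p below 0.05. Genes that overlap a member, markers and some further listed genes (*ATRIP*, *GPATCH11*, *PTPRC*, *CD8A*, *CD68*, *CD3E*, *MS4A1*, *CD247*, *TH*, *PRRX1*, *MKI67*, *TDG*, *DHX30*, *DDX17*, *APOBEC3D*, *APOBEC3H*, *RRM2*, *DCTD*, *APOBEC3A* and *APOBEC1*) were named outside this rule, after their values were seen. Members and lists were chosen with earlier results of these data known, although the rule for members uses symbols alone. Some listed genes are not reported here.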

Additional observations from a re-analysis of the deposited data

How the results depend on the processing

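Of the alternatives tried, 126 of 135 log2 fold changes of the members, over 15 settings each, kept their direction and call. The number of genes called, 0 in the reported fit, was 9 with every gene of at least 1 count, 51 with robust dispersions, 8 with the non-legacy fit, 1 with the top transcript per gene, 122 at an adjusted p below 0.05, 1800 with DESeq2 on the same genes and 1741 with DESeq2 on genes of at least 10 counts. Members called were 2 under both DESeq2 fits and 1 at an adjusted p below 0.05, and DESeq2 called 2 member transcripts. The number of members higher at an unadjusted p below 0.05 was 2 in both DESeq2 fits and 0 with limma-voom, the replicate block and the top transcript, and 0 to 0 without 1 library. The *APOBEC3C* log2 fold change turned to 2.76 with limma-voom and 1.42 with the replicate block and ranged from -3.06 to 8.90 without 1 library, and *APOBEC3F* ranged from -0.43 to 0.11. Of the partner genes the replicate block gave 10 higher and 8 lower, and leaving out 1 library gave 9 to 12 higher and 8 to 13 lower. Without 1 library, the lone library left in a group was assumed to vary like the other group. The cause of these shifts was not tested. The deviations of the first replicates from their group means were not correlated between the groups (r = -0.02 across 20528 genes). That value cannot show whether the libraries were prepared as pairs. The block gave *PDE12* an adjusted p of 0.296 in edgeR. *APOBEC3G*, with 24 to 56 counts in a library, rests on few counts.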
